A study of Homo sapiens with 28 samples.

Results

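The genes described here are 44 genes of DNA replication and mitosis, taken from a list of names and found in a table of 60487 rows by their Ensembl identifiers. All 44 matched a row and all 44 passed the filter on low counts in every fit, so none is missing from the counts below. They fall into 23 replication members and 21 mitotic members. The replication members license, fire and extend replication origins or supply their nucleotides and control S-phase entry. Most of the mitotic members act in the entry into mitosis, the spindle, its checkpoint or the exit from mitosis. Counted with them are others, such as the transcription factor FOXM1 and the proliferation antigen MKI67. RNA was measured in 28 libraries of A549 and H1944, both human lung adenocarcinoma cell lines that carried the fluorescent reporter MGT#1-mVenus. Cells of each line were given GSK126, an inhibitor of the histone methyltransferase EZH2, at 5 µM, or the cytokine TGF-β1 at 5 ng/ml, for 11 days, and were then sorted by flow cytometry into a gate of low and a gate of high mVenus. Naive controls of each line, whose libraries also held mVenus counts, were not sorted, so treatment and sorting cannot be told apart in a comparison with naive cells. That makes 10 groups of line, treatment and gate, of which 8 had 3 libraries. The other 2 groups, the A549 high gate under GSK126 and the A549 low gate under TGF-β1, had 2 libraries each, and their missing letters were not analysed here. Nothing in the labels says that the libraries of a group came from separate cultures, so p-values measure the spread between these libraries, which may be technical.

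Cells copy their DNA once per division. The MCM2 to MCM7 proteins form the ring that CDC6 and CDT1 load onto origins, CDC45 and the GINS proteins turn that ring into an active helicase, and PCNA, polymerases and ligase complete the new strands. Most genes of this set are transcribed by E2F factors when the retinoblastoma proteins release them, whereas genes of the spindle and its checkpoint peak later, under MYBL2 (B-MYB), FOXM1 and the MuvB complex, which reads a short promoter word called the CHR. TGF-β1 is known to halt many epithelial cells in G1 through inhibitors of cyclin-dependent kinases, and to drive carcinoma cells toward a mesenchymal state. In bulk RNA, fewer cycling cells and less RNA per cycling cell cannot be told apart, here and in every result below.

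The promoters of both sets are shown because the sets are known to be read by different factors. RefSeq's GRCh38.p14 table held a promoter for 35 of the 44 members, 20 of replication and 15 of mitosis. It held none for MCM4, MCM5, CCNE2, AURKA, TTK, BIRC5, TPX2, UBE2C and FOXM1. In the 250 bases before the start, an E2F word (TTTCCCGC, TTTCGCGC, TTTGCCGC or TTTGGCGC, on either strand) stood in 10 of 20 replication genes and in 1 of 15 mitotic genes (6.67%). The share was 5.71% of 9787 coding genes tested in both lines and 2.79% of all 35116 promoters in the table. A gene was counted where any of its promoters held the word, and the 35 members had 43 promoters. Shares of all promoters are per promoter, so they are not in the same unit as those of genes. A CHR word (TTTGAA or TTCGAA, on either strand) stood in 9 of 15 mitotic genes (60.0%) and in 2 of 20 replication genes (10.0%), against 14.0% of the other coding genes and 14.3% of all promoters. CCAAT, the word of the factor NF-Y, stood in 14 of 15 mitotic genes (93.3%) and 13 of 20 replication genes (65.0%), against 42.1% of the other coding genes and 32.0% of all promoters. Both CHR and CCAAT stood in 8 of 15 mitotic genes (53.3%), 2 of 20 replication genes (10.0%), 5.56% of the other coding genes and 5.05% of all promoters. A match is a word in a window, not a bound site, and overlapping words were each counted.

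The last 160 bases before the start of 3 replication members with an E2F word, MCM6 at chr2:135876444-135876603 (minus strand), E2F1 at chr20:33686386-33686545 (minus strand) and PCNA at chr20:5126623-5126782 (minus strand), follow, 5′ to 3′ on the strand of the gene with E2F words in capitals. In MCM6 the word TTTGGCGC overlaps GCGCGAAA, which is the word TTTCGCGC read on the other strand, in each of its capital stretches.
MCM6: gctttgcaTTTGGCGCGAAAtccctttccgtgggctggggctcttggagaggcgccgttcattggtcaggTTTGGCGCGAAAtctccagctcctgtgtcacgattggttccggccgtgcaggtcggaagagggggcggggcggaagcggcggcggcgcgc
E2F1: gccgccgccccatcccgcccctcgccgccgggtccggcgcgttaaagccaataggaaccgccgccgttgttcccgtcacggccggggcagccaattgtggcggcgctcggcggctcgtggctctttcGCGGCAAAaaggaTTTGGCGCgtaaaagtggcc
PCNA: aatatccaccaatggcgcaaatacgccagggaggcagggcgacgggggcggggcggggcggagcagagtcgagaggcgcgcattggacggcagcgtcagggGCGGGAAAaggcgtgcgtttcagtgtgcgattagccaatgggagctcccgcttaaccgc

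The same stretch is given for 4 mitotic members that held CHR and CCAAT together, PLK1 at chr16:23678729-23678888 (plus strand), KIF23 at chr15:69414189-69414348 (plus strand), KIF11 at chr10:92592970-92593129 (plus strand) and MKI67 at chr10:128126424-128126583 (minus strand). Capitals mark the CHR words and the CCAAT words (ATTGG on the other strand). The last CHR word of MKI67 overlaps a CCAAT word.
PLK1: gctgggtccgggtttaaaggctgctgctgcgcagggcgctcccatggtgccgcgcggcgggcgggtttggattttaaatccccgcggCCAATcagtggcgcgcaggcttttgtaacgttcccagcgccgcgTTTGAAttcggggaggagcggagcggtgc
KIF23: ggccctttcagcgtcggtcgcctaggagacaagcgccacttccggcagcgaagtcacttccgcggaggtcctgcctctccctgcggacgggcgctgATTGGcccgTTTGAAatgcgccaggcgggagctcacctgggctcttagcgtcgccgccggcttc
KIF11: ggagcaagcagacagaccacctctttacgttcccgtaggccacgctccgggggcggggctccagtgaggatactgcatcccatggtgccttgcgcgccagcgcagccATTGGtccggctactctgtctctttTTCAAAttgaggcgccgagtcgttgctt
MKI67: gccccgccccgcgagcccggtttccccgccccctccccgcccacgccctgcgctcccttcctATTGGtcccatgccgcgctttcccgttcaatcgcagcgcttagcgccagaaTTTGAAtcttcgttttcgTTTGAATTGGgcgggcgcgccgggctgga

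**Figure D1:**
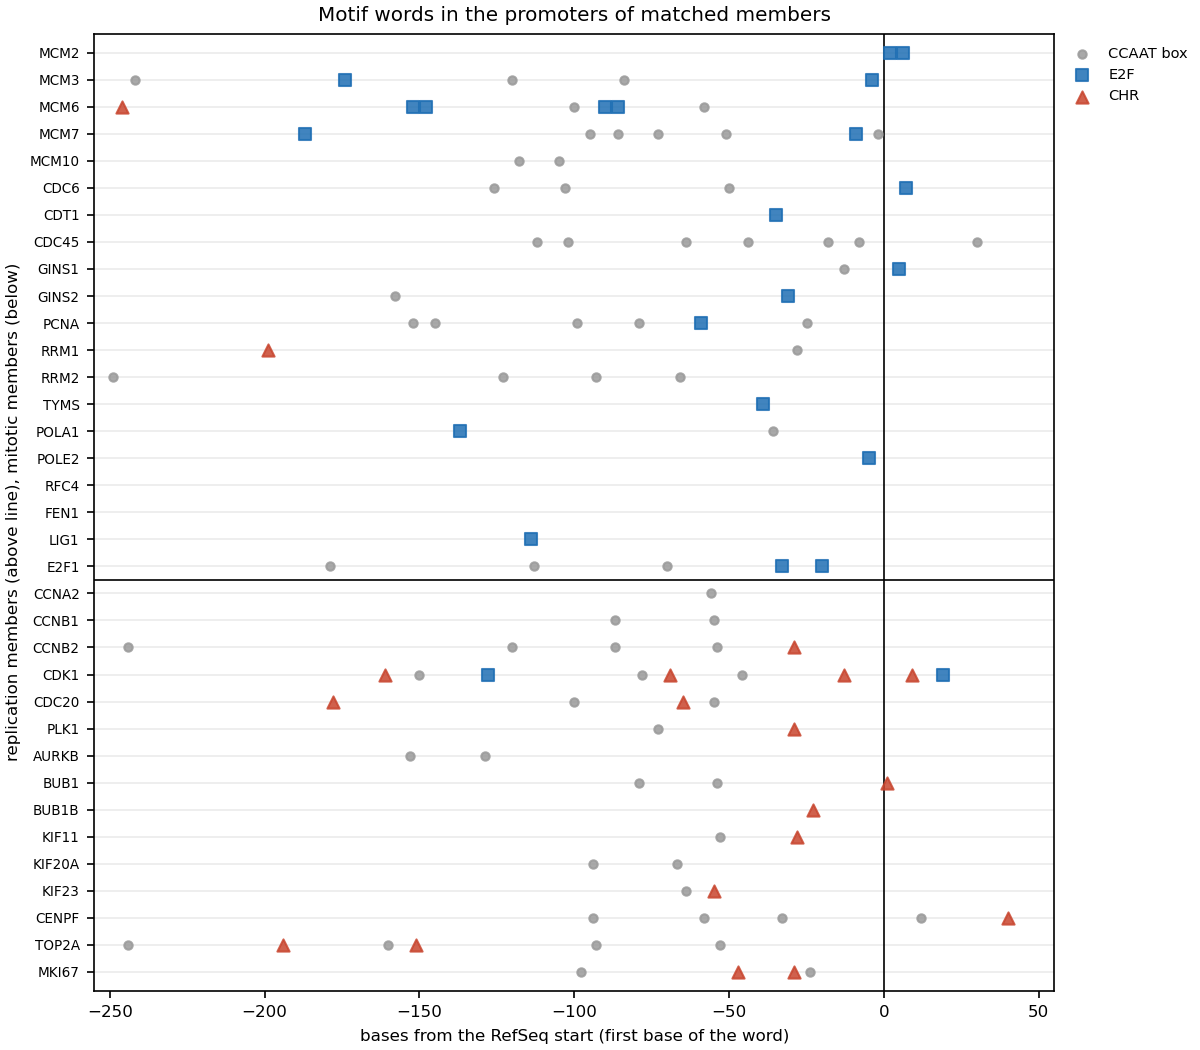
Position of each E2F (blue squares), CHR (red triangles) and CCAAT (grey circles) word in the promoters of the 35 matched members, as bases from the RefSeq start to the word's first base; genes with several starts show the words of each. E2F words lie mostly in the replication members above the line, and CHR words mostly in the mitotic members below it.

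Library totals ran from 2013449 to 9550143 counts in A549 and from 1660148 to 13280592 in H1944. The fits tested 19842 genes in A549, 13621 in H1944 and 17918 in both lines together. A549 libraries varied more between replicates (a biological coefficient of variation of 0.358, against 0.0978 in H1944), so the same change is harder to call there. Background, taken as the summed level of 374 olfactory receptor genes, ran from 5.99 to 305 CPM (counts scaled to the same total in every library) in A549 and from 3.62 to 73.2 CPM in H1944. It was above 150 CPM in 2 A549 libraries, naive A (195 CPM) and the high TGF-β1 gate B (305 CPM). The mitochondrial share of counts was 6.39% to 9.31% in naive A549 and 4.71% to 6.75% in the treated A549 libraries, and 6.59% to 7.41% in naive and 4.46% to 5.85% in treated H1944, and its part in the results was not tested. The keratins KRT8 and KRT18 marked both lines as epithelial, at means of 6284 and 3807 CPM in naive A549 and 3015 and 1716 CPM in naive H1944. The summed level of all 6 epithelial markers was 12200 to 12800 CPM in naive A549. It was 8040 to 10800 CPM there under GSK126 and 5000 to 7390 CPM under TGF-β1. For H1944 the sum was 4990 to 5620 CPM in naive cells, 4940 to 7680 CPM under GSK126 and 1490 to 1730 CPM under TGF-β1. The summed level of 11 immune, endothelial and fibroblast markers was 4.34 to 55.1 CPM in naive A549, 7.98 to 39.3 CPM under GSK126 and 34.6 to 112 CPM under TGF-β1. In H1944 it was 12.1 to 22.3, 11.7 to 35.1 and 68.4 to 107 CPM. Of these markers, the fibroblast matrix gene LUM rose in all 4 comparisons with naive cells, under TGF-β1 by 3.97 in A549 (adjusted p = 5.52e-06) and 7.82 in H1944 (adjusted p = 5.95e-19) on the log2 scale. DCN rose by 4.51 in H1944 under TGF-β1 (adjusted p = 2.03e-13). In H1944 3 of the 11 were tested, of which 2 rose and 1 fell (log2 -3.47) under TGF-β1. Under GSK126 1 of them rose and 1 fell (log2 -1.38). In A549 8 were tested, and 1 rose and none fell under each agent. CD3E and CD68 were at most 2.46 CPM in every library. The part of these markers in the results was not tested.

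Per kilobase of exon, PCNA, the sliding clamp of the polymerases, had the highest level of the 44 in naive cells of both lines (248 CPM per kb in A549 and 90.0 in H1944). CCNE2, which encodes cyclin E2, had the lowest (2.10 and 3.13 CPM per kb). Between the lines, naive A549 had the higher mean CPM for 20 of 21 mitotic members (median ratio 1.81) and for 16 of 23 replication members (median ratio 1.37). This is a comparison of levels in CPM, without a test. The same ratio was not taken over all genes, so these counts have no background share beside them.

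TGF-β1 lowered nearly the whole of both sets in A549. Of the replication members 21 of 23 fell and of the mitotic members 21 of 21, and no member rose, by edgeR's quasi-likelihood test with Benjamini-Hochberg adjustment at 0.05. Over all genes tested, 11.4% were lower and 7.67% higher in that comparison. The median log2 fold change was -0.85 in the replication members and -1.15 in the mitotic members, against 0.05 over all genes. Naive and TGF-β1 libraries did not overlap in CPM in 20 of 23 replication and 21 of 21 mitotic members, all lower, as in 12.7% of all genes tested. The count of 21 replication members was 12 with no filter on low counts, 13 with a filter at 1 CPM and 11 with the low gate alone, while that of the mitotic members was within 1.5 times under every alternative run.

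Among the replication members of A549, POLE2, a subunit of the leading-strand polymerase, had the largest fall. It stood at 28.1, 30.8 and 24.1 CPM in naive cells, at 8.99 and 12.3 CPM in the low gate and at 9.65, 11.1 and 9.95 CPM in the high gate of TGF-β1. The highest treated library was thus under every naive one, and the log2 fold change was -1.58 ± 0.20 (SE, adjusted p = 1.22e-05). GINS2, part of the active helicase, fell from 51.5, 52.9 and 38.0 CPM to between 19.3 and 26.1 CPM (log2 -1.27 ± 0.20, adjusted p = 0.000151). TYMS, which makes thymidylate, fell from 136, 192 and 160 CPM to between 69.9 and 93.0 CPM (log2 -1.28 ± 0.22, adjusted p = 0.000249). PCNA stood at 300, 449 and 345 CPM in naive cells and at 147, 202, 179, 128 and 187 CPM under TGF-β1 (log2 -1.30 ± 0.25, adjusted p = 0.000966). All 5 treated libraries of PCNA lay under the lowest naive one.

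The rest of the replication machinery fell by less. The 6 genes of the MCM ring fell together, from -1.07 (MCM2) to -0.63 (MCM4) on the log2 scale. Of the genes that load and start the ring, CDT1 fell by 1.15, CDC45 by 1.06, CDC6 and MCM10 by 0.89 each and GINS1 by 0.85. RRM1 and RRM2, the subunits of ribonucleotide reductase, fell by 0.73 and 1.06, RFC4 of the clamp loader by 1.16, POLA1, the polymerase that starts each new strand, by 0.65, the ligase LIG1 by 0.72 and the transcription factor E2F1 by 0.81. The members not past the test were FEN1, the flap nuclease of lagging strands, at -0.50 ± 0.21 (adjusted p = 0.109), and CCNE2 at 0.16 ± 0.29 (adjusted p = 0.850).

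The mitotic members fell further in A549. CDK1, the kinase that starts mitosis, stood at 169, 286 and 194 CPM in naive cells and at 56.9, 88.0, 81.6, 74.9 and 99.0 CPM under TGF-β1 (log2 -1.67 ± 0.27, adjusted p = 0.000144). KIF20A, a kinesin of cytokinesis, stood at 117, 130 and 115 CPM against 50.8, 53.2, 45.3, 38.1 and 45.9 CPM (log2 -1.52 ± 0.21, adjusted p = 2.23e-05). UBE2C, which hands ubiquitin to the anaphase-promoting complex, stood at 60.6, 61.6 and 58.7 CPM against 19.1, 25.7, 23.6, 19.3 and 28.2 CPM (log2 -1.55 ± 0.21, adjusted p = 2.37e-05). In each of these genes the groups were apart. The mitotic cyclins CCNA2, CCNB1 and CCNB2 fell by 1.29, 1.25 and 1.32, and the proliferation antigen MKI67 by 1.34. The smallest falls were those of the checkpoint kinase BUB1B (0.61) and the transcription factor FOXM1 (0.66). Of the others, the kinases AURKA, PLK1, TTK, AURKB and BUB1 fell by 1.33, 1.19, 1.03, 0.88 and 0.84, and TOP2A, KIF11, KIF23, BIRC5, CDC20, TPX2 and CENPF by 1.21, 1.15, 1.07, 1.02, 0.98, 0.93 and 0.90. With only naive and TGF-β1 libraries in the fit, which leaves fewer libraries to estimate the spread, 26 members passed the test instead of 42, of which 10 were replication members. All of the passing members were lower in that fit too.

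**Figure D2:**
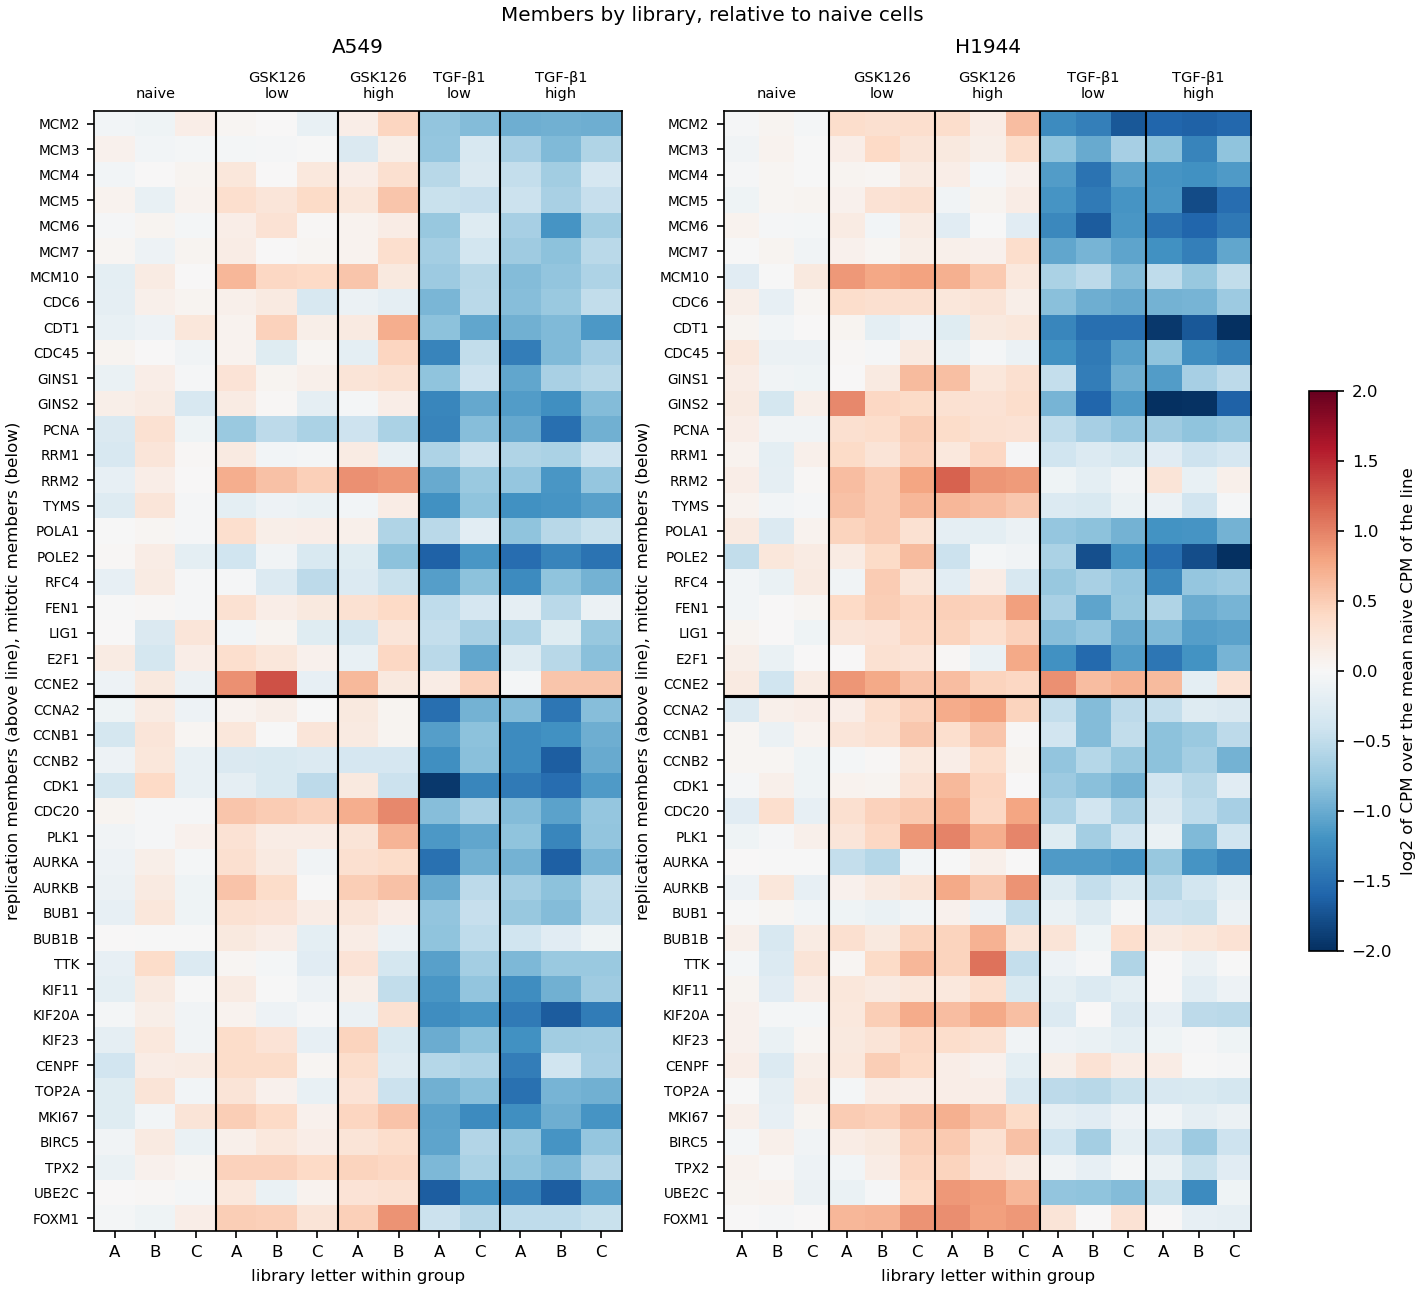
Heat map of log2 CPM over the mean naive CPM of the line, for the 44 members (rows) and each library (columns, by group and letter). In A549 the TGF-β1 columns are blue over nearly all rows, while in H1944 the blue is deep over the replication members and pale over most mitotic members, and GSK126 columns are pale red in H1944.

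In H1944 TGF-β1 lowered most replication members and fewer of the mitotic ones. There 20 of 23 replication members fell and 1 rose, while of the mitotic members 10 of 21 fell and 1 rose, with 31.6% of all genes lower and 32.1% higher. The median log2 fold change was -0.87 in the replication members and -0.23 in the mitotic members, against -0.01 over all genes. The share of mitotic members lower, 10 of 21, stands beside a background of 31.6%. Naive and TGF-β1 libraries did not overlap in 20 of 23 replication members, all lower, and in 9 of 21 mitotic members, also all lower, against 30.0% of all genes tested.

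The MCM ring carried the smallest p-values in H1944. MCM2 stood at 125, 132 and 124 CPM in naive cells, at 53.5, 49.4 and 39.2 CPM in the low gate and at 42.6, 41.6 and 42.8 CPM in the high gate (log2 -1.43 ± 0.10, adjusted p = 3.46e-14). MCM4 was at 487, 507 and 494 CPM in naive cells, and over the 6 treated libraries its lowest, median and highest values were 178, 223 and 236 CPM (log2 -1.12 ± 0.08, adjusted p = 3.58e-14). MCM6 was at 172, 160 and 158 CPM, against 51.8, 59.9 and 73.3 CPM as the lowest, median and highest (log2 -1.34 ± 0.10, adjusted p = 5.23e-14). In these 3 genes every treated library lay below all naive ones. The licensing factor CDT1 had the largest fall of all 44, from 39.1, 36.2 and 38.0 CPM to 9.03, 12.5 and 15.3 CPM as the lowest, median and highest (log2 -1.58 ± 0.14, adjusted p = 1.56e-11). GINS2 fell from 20.6, 14.1 and 19.6 CPM to 4.53, 5.96 and 9.47 CPM (log2 -1.45 ± 0.20, adjusted p = 1.46e-07).

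Of the other replication members in H1944, MCM5 fell by 1.29, MCM7 by 1.03 and MCM3 by 0.82, CDC45 by 1.08, CDC6 by 0.83, GINS1 by 0.70 and MCM10 by 0.60. The strand-making genes POLE2, POLA1, LIG1, RFC4, FEN1 and PCNA fell by 1.44, 0.91, 0.87, 0.78, 0.74 and 0.62, and E2F1 fell by 1.14. Next came the genes that supply nucleotides. RRM1 had the smallest fall (0.28), TYMS was at -0.13 ± 0.09 (adjusted p = 0.227) and RRM2 at 0.05 ± 0.10 (adjusted p = 0.675). RRM2 was measured at 181, 146 and 167 CPM in naive cells and at 143, 156 and 196 CPM as the lowest, median and highest under TGF-β1, so the groups overlapped. CCNE2 rose, from 15.6, 10.4 and 15.4 CPM to a lowest, median and highest of 12.1, 21.2 and 26.0 CPM (log2 0.54 ± 0.18, adjusted p = 0.00806), although its groups overlapped.

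Several of these genes share exon sequence with a neighbour, and the strand setting of the counting is not given in the sources used here. The share of exon bases is 39.1% for TYMS (ENOSF1, opposite strand), 37.0% for CCNE2 (INTS8, opposite strand), 22.7% for MCM2 (an antisense gene) and 20.2% for RRM2 (a gene on the same strand). It is 15.9% for FOXM1 (ITFG2, opposite strand), 11.6% for PLK1 (an antisense gene) and 10.2% for BUB1B (its read-through gene). Levels of these 7 genes are uncertain for that reason, and by how much was not tested.

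Among the mitotic members of H1944, AURKA had the largest fall. AURKA, a kinase of spindle poles, fell from 87.9, 86.9 and 86.1 CPM to 34.6, 39.1 and 51.2 CPM as the lowest, median and highest (log2 -1.04 ± 0.11, adjusted p = 8.49e-10). CCNB2 fell from 54.7, 54.5 and 49.8 CPM to 27.5, 31.0 and 35.5 CPM (log2 -0.68 ± 0.11, adjusted p = 2.63e-06), and CCNB1 from 120, 107 and 122 CPM to 63.9, 74.8 and 89.2 CPM (log2 -0.55 ± 0.11, adjusted p = 5.43e-05). In all 3 the groups were apart. The other falls were those of UBE2C (0.56), CDK1 (0.52), CDC20 (0.42), CCNA2 (0.42), BIRC5 (0.38), PLK1 (0.37) and TOP2A (0.36). BUB1B rose by 0.26 ± 0.11 (adjusted p = 0.0484), with naive values of 71.0, 53.2 and 74.3 CPM and treated values from 62.7 to 83.9 CPM that overlapped them.

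The remaining 10 mitotic members of H1944 did not pass the test under TGF-β1. KIF20A and AURKB were at -0.23 each, BUB1 at -0.15, TTK at -0.14, KIF11 at -0.11, TPX2 at -0.10, MKI67 at -0.08, KIF23 at -0.04, FOXM1 at 0.11 and CENPF at 0.18, with adjusted p from 0.0776 to 0.753. MKI67, which marks cycling cells in pathology, stood at 739, 611 and 710 CPM in naive H1944 and at 589, 620 and 661 CPM as the lowest, median and highest under TGF-β1. In A549 the same gene was at 932, 1063 and 1318 CPM in naive cells and at 528, 461, 474, 564 and 490 CPM under TGF-β1. The plot of 8 members by library shows both patterns.

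**Figure D3:**
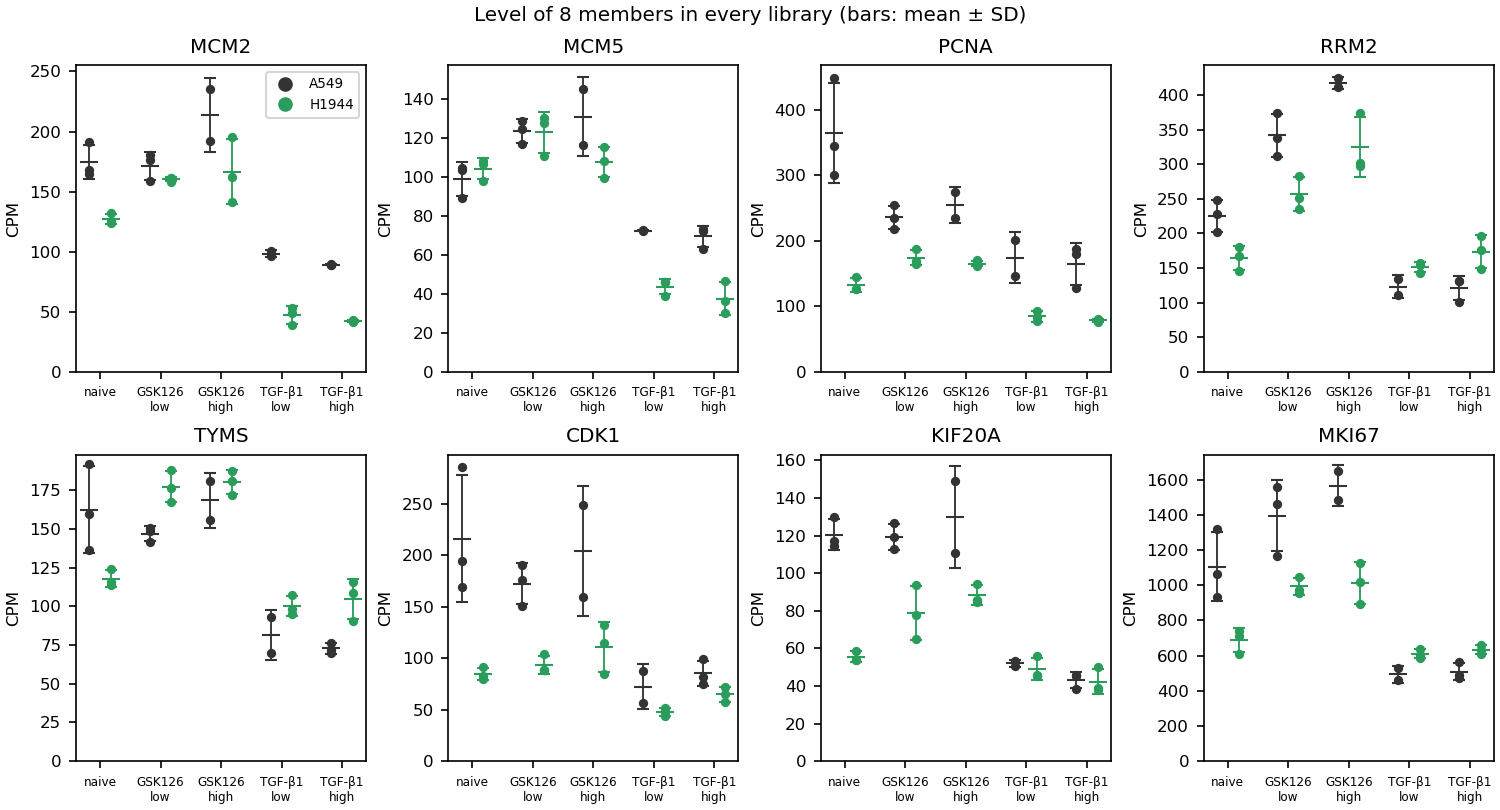
CPM of 8 members in every library (points) with the mean ± SD of each group (bars), A549 in black and H1944 in green, by treatment and gate, with the vertical axis from 0. Under TGF-β1, MCM2 and MCM5 drop in both lines, whereas RRM2, TYMS, KIF20A and MKI67 drop in A549 and lie closer to their naive level in H1944.

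Taking each line's calls against naive cells, 19 of 23 replication members were lower in both lines, 2 in A549 alone, 1 in H1944 alone and 1 in neither. Of the mitotic members 10 of 21 were lower in both lines and 11 in A549 alone. A call in 1 line and not in the other is no test of a difference, which the joint fit gives directly. There, the effect of TGF-β1 was higher in H1944 than in A549 for 12 of 21 mitotic members and lower for none, and for replication members it was higher in 2 and lower in 4. Over all genes, 10.5% were higher and 9.48% lower in that difference. The median difference was 0.69 in the mitotic and -0.20 in the replication members, against 0.02 over all genes. The joint fit filters and scales all 28 libraries together, so its differences need not match the separate fits. In those, the replication medians were close, at -0.85 in A549 and -0.87 in H1944, and the mitotic medians were -1.15 and -0.23. How far the joint scaling moved the calls was not tested. The count of 4 lower replication members was 8 by limma-voom, 1 with no filter or with a filter at 1 CPM and 0 with the low gates alone. It was 7 without the A549 high TGF-β1 gate B, 1 without the A549 low TGF-β1 gate C, A549 naive A or H1944 naive B, and 2 without the A549 high TGF-β1 gate A, the H1944 low or high TGF-β1 gate B or H1944 naive A.

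Of the mitotic members, MKI67 had the smallest adjusted p of the difference between the lines, at 1.09 ± 0.20 on the log2 scale (adjusted p = 0.000151), followed by KIF20A at 1.14 ± 0.22 (adjusted p = 0.000255) and CENPF, a kinetochore protein, at 0.91 ± 0.24 (adjusted p = 0.00673). The others were CDK1 (0.98), KIF11 (0.89), KIF23 (0.87), UBE2C (0.82), CCNA2 (0.73), BUB1B (0.73), TOP2A (0.69), TPX2 (0.67) and FOXM1 (0.62). Mitotic members whose difference did not pass ran from 0.14 (AURKA) to 0.76 (TTK), and all 21 were positive.

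In the replication set, the nucleotide genes TYMS (0.98 ± 0.21, adjusted p = 0.000942) and RRM2 (0.96 ± 0.23, adjusted p = 0.00273) had the higher effect in H1944, where neither passed the test against naive cells. The ring genes MCM5 (-0.81 ± 0.20, adjusted p = 0.00357), MCM6 (-0.68), MCM4 (-0.65) and MCM2 (-0.52) fell further there than in A549. RRM1, which also supplies nucleotides, did not pass for this difference. At 2 of 23, the share of replication members higher was near the 10.5% of all genes. Without the naive library B of H1944, 11 members passed this test instead of 18, of which 8 were mitotic and higher. Setting the gates against naive cells by themselves gave 10 members for the low gates and 11 for the high gates, of which 8 and 7 were mitotic and higher. No mitotic member was lower in H1944 under any of these fits.

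**Figure D4:**
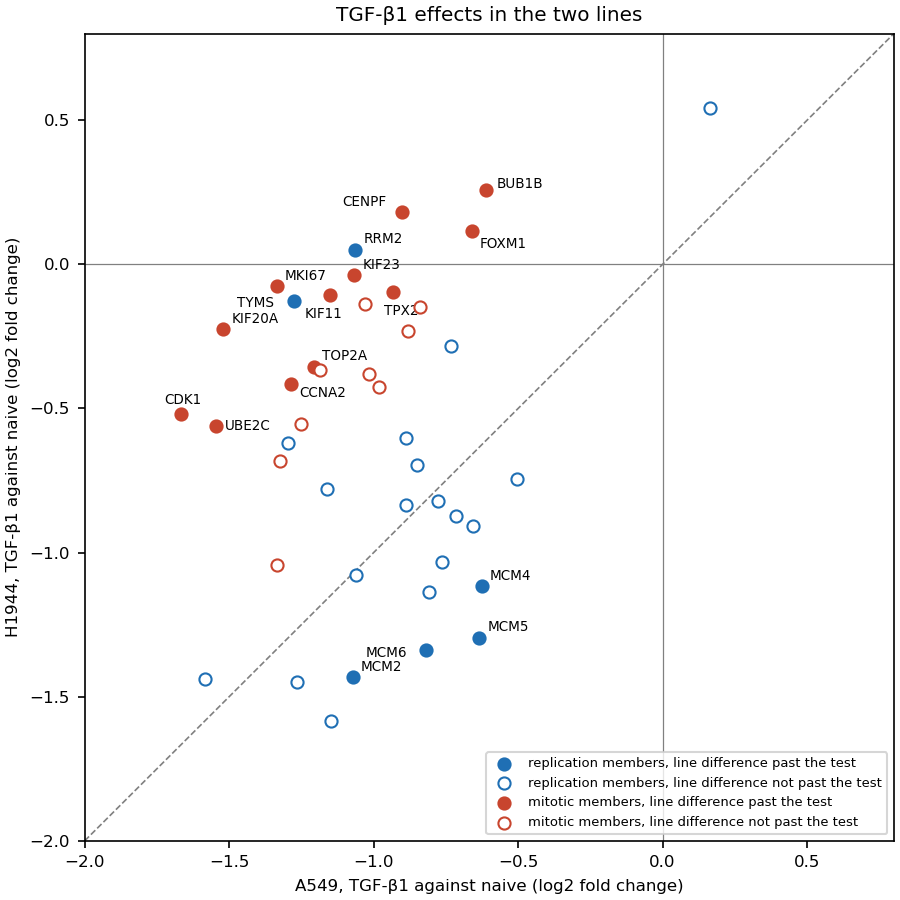
Log2 fold change under TGF-β1 against naive cells in A549 (horizontal) and H1944 (vertical) for the 44 members, replication in blue and mitotic in red, filled where the difference between the lines passed the test; the dashed line marks equal change. The filled mitotic members all lie above the dashed line, and MCM2, MCM4, MCM5 and MCM6 lie below it.

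Averages over the members within single libraries restate this contrast on the same data and are no further test of it. Averaged over members as log2 CPM against naive cells, with a pseudocount of 0.5 CPM, the 5 TGF-β1 libraries of A549 ran from -0.80 to -0.56 in the replication set and from -1.08 to -0.78 in the mitotic set. The 6 libraries of H1944 ran from -1.07 to -0.74 and from -0.43 to -0.27. So the mitotic set was the lower of the pair in all 5 A549 libraries (replication minus mitotic of 0.14 to 0.28) and the higher of the pair in all 6 H1944 libraries (-0.65 to -0.43). In naive libraries that difference ran from -0.098 to 0.073 in A549 and from -0.039 to 0.029 in H1944.

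GSK126 raised some of both sets in H1944 and gave no call in A549. In H1944 8 of 23 replication members rose and none fell, and of the mitotic members 8 of 21 rose and 1 fell, with 21.5% of all genes higher and 18.7% lower. The median log2 fold change was 0.15 in the replication and 0.26 in the mitotic members, against 0.01 over all genes. The libraries were apart in 11 of 23 replication and 6 of 21 mitotic members, all above naive, against 22.1% of all genes tested. With 6 of 21, the share of mitotic members apart was near that background. Without the naive library C of H1944, the deepest of all, 11 members passed instead of 17, all higher. With no filter on low counts, 10 passed, all higher. The count of 8 replication members was 4 with no filter and 5 without the high gate A, the low gate C, naive B or naive C. That of 8 mitotic members was 5 with the low gate alone or without naive A, and 13 without the high gate C.

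RRM2 had the largest rise of a replication member in H1944. It stood at 181, 146 and 167 CPM in naive cells, at 251, 235 and 283 CPM in the low gate and at 375, 302 and 297 CPM in the high gate (log2 0.70 ± 0.10, adjusted p = 6.40e-07). TYMS rose from 124, 114 and 116 CPM to a lowest, median and highest of 168, 179 and 188 CPM (log2 0.49 ± 0.09, adjusted p = 3.47e-05). MCM10, a helicase-activating factor, rose from 41.6, 48.2 and 55.8 CPM to 56.3, 81.5 and 88.7 CPM (log2 0.51 ± 0.11, adjusted p = 0.000436). In these 3 genes every treated library lay above the naive ones. CCNE2, FEN1, LIG1, PCNA and MCM2 rose by 0.46, 0.39, 0.26, 0.25 and 0.24. The other 15 replication members ran from -0.14 (MCM6) to 0.32 (GINS2), with adjusted p of at least 0.130. Among them were CDT1 (-0.13), CDC45 (-0.12), RFC4 (-0.07), POLE2 (-0.05), MCM4 (-0.04), POLA1 (0.00), MCM5 (0.02), MCM7 (0.02), E2F1 (0.10), MCM3 (0.13), CDC6 (0.15), RRM1 (0.16) and GINS1 (0.26).

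FOXM1, the transcription factor of late cell-cycle genes, led the mitotic members under GSK126 in H1944. It stood at 150, 146 and 149 CPM in naive cells, at 235, 238 and 277 CPM in the low gate and at 282, 262 and 271 CPM in the high gate (log2 0.70 ± 0.09, adjusted p = 5.45e-08). MKI67 rose from 739, 611 and 710 CPM to 894, 997 and 1129 CPM as the lowest, median and highest (log2 0.43 ± 0.08, adjusted p = 4.66e-05), and PLK1, a kinase of mitotic entry, from 78.2, 81.9 and 88.6 CPM to 98.6, 145 and 165 CPM (log2 0.59 ± 0.13, adjusted p = 0.000222). The groups were apart in all 3. KIF20A, CDC20, AURKB, CCNA2 and BIRC5 rose by 0.47, 0.46, 0.38, 0.36 and 0.27. AURKA fell by 0.27 ± 0.11 (adjusted p = 0.0383), with 62.2, 58.9 and 84.0 CPM in the low gate but 86.6, 93.3 and 87.6 CPM in the high gate, which overlapped the naive values of 86.1 to 87.9 CPM.

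The 12 mitotic members of H1944 that did not pass under GSK126 ran from -0.22 (BUB1) to 0.36 (UBE2C), with adjusted p from 0.0595 to 0.858. They were TOP2A (-0.08), CCNB2 (0.03), KIF11 (0.04), CENPF (0.08), KIF23 and TPX2 (0.14 each), CDK1 (0.17), CCNB1 (0.22), BUB1B (0.26) and TTK (0.27), besides those 2.

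In A549, 0 of 44 members passed under GSK126, against 3.57% of all genes higher and 3.20% lower. At an unadjusted p of 0.05, 3 replication and 2 mitotic members passed by edgeR, against 17.6% of all genes tested. DESeq2 and limma-voom called 4 members each. The replication members ran from -0.69 (PCNA) to 0.65 (RRM2), and the mitotic members from -0.41 (CCNB2) to 0.61 (CDC20), with medians of 0.05 and 0.06 against -0.17 over all genes. PCNA stood at 300, 449 and 345 CPM in naive cells and at 218, 254, 235, 274 and 235 CPM under GSK126 (adjusted p = 0.138). RRM2 stood at 201, 248 and 228 CPM against 374, 338, 313, 424 and 412 CPM (adjusted p = 0.122), and CDC20, an activator of the anaphase-promoting complex, at 67.7, 64.1 and 64.6 CPM against 95.8, 92.9, 89.8, 108 and 128 CPM (adjusted p = 0.0777). All 3 had groups that did not overlap, as had 4 members above and 1 below in each set, against 10.2% of all genes above and 6.3% below. Without naive library A, which held much background, 2 members passed. Without both libraries rich in background 4 passed, 2 higher and 2 lower, by edgeR in each case.

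**Figure D5:**
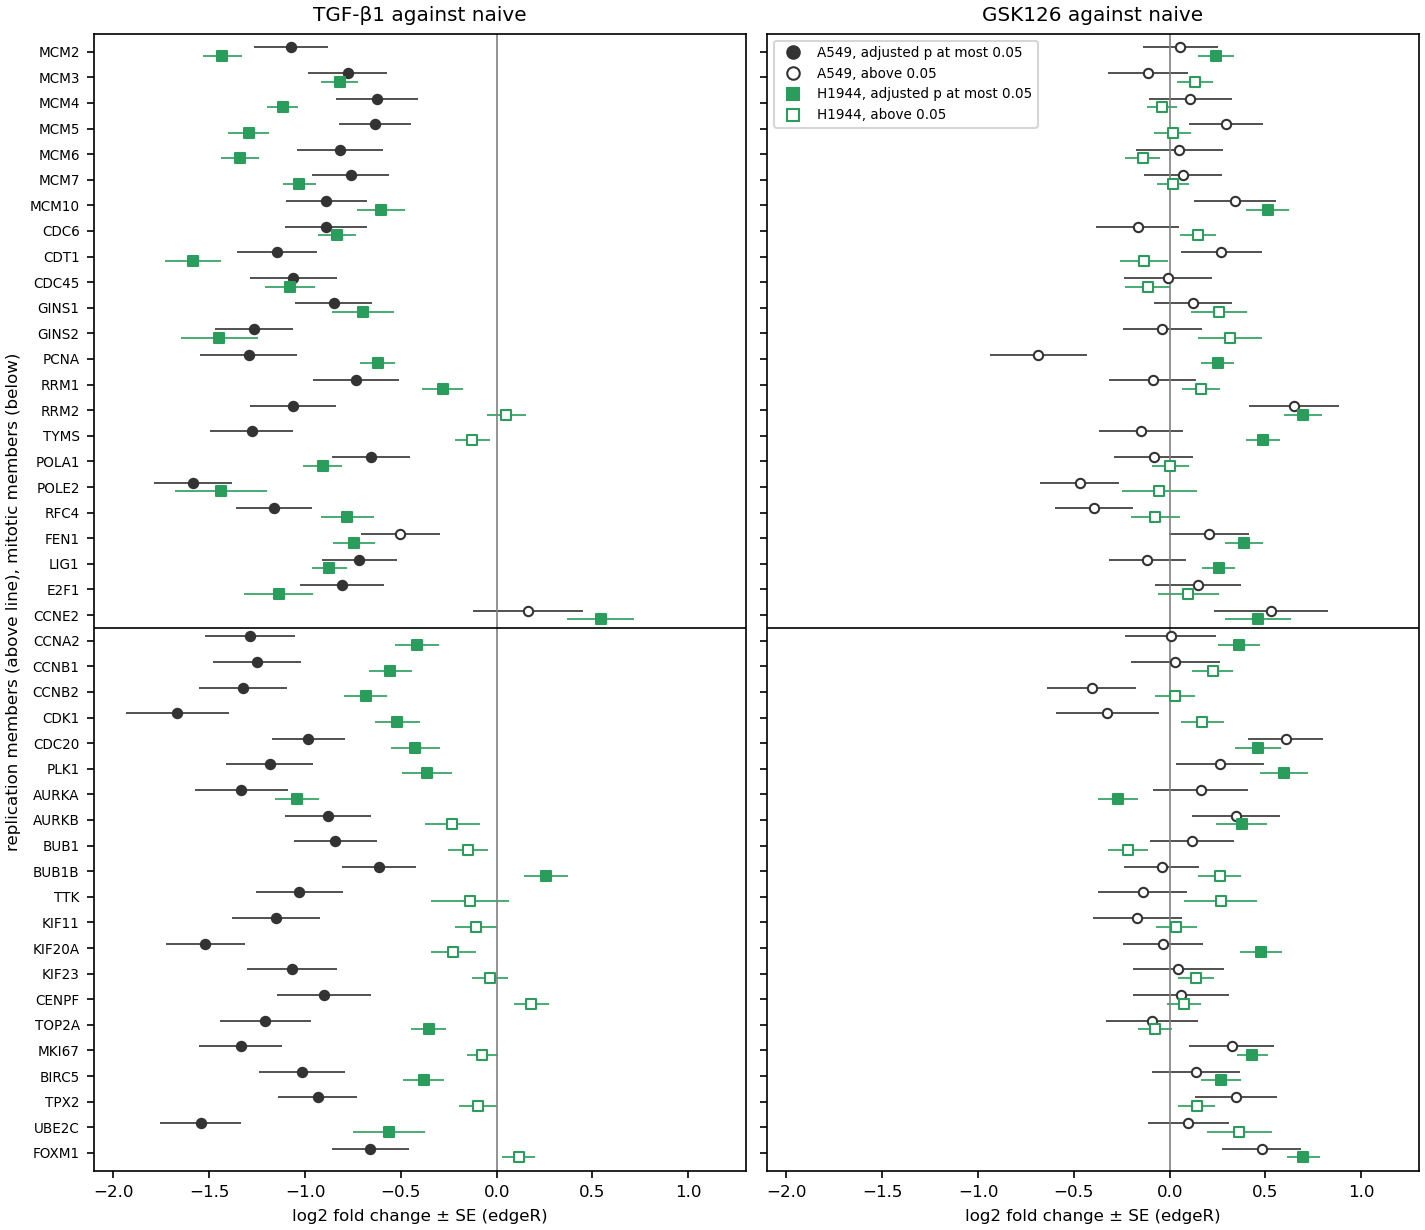
Log2 fold change ± SE of each member against naive cells under TGF-β1 (left) and GSK126 (right), A549 as black circles and H1944 as green squares, filled where the adjusted p was at most 0.05. Under TGF-β1 the mitotic members of H1944 lie nearer to 0 than those of A549, and under GSK126 no A549 point is filled.

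The joint fit found 1 member whose answer to GSK126 differed between the lines, with 6.18% of all genes higher and 3.73% lower in H1944. It was PCNA, at 0.90 ± 0.25 on the log2 scale (adjusted p = 0.0150). At 1 of 44, the share of members higher was below the 6.18% of all genes. In H1944 PCNA stood at 145, 126 and 126 CPM in naive cells and at 162, 168 and 187 CPM as the lowest, median and highest under GSK126, all above naive, whereas in A549 all treated libraries were below. The median difference was 0.15 in the replication and 0.16 in the mitotic members, against 0.13 over all genes. With the high gates alone no member passed (PCNA 0.69, adjusted p = 0.154 by edgeR). Leaving out the A549 naive library B also left 0 members. The count was 2 without A549 naive A, without A549 low gate C or without H1944 low gate C, and 4 without A549 high gate B.

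Set against GSK126 instead of naive cells, members were lower under TGF-β1 in both lines. This comparison is between sorted cells throughout. It shares its TGF-β1 libraries with the comparison with naive cells. In A549, 21 of 23 replication and 21 of 21 mitotic members were lower and none higher, with 11.4% of all genes lower and 7.93% higher. The count of 21 replication members was 11 without the A549 high GSK126 gate B and 12 with no filter on low counts. The exceptions were PCNA (-0.61 ± 0.23, adjusted p = 0.0704) and CCNE2 (-0.36 ± 0.26, adjusted p = 0.349). In H1944, 22 of 23 replication and 16 of 21 mitotic members were lower and none higher, with 32.1% of all genes lower and 31.6% higher. Medians in H1944 were -1.05 and -0.61, and in A549 -0.87 and -1.23.

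Of the replication members of A549, RRM2 differed most between the agents, at 374, 338, 313, 424 and 412 CPM under GSK126 and 112, 135, 132, 101 and 132 CPM under TGF-β1 (log2 -1.71 ± 0.21, adjusted p = 7.49e-06). CDT1 was at -1.42 ± 0.19 (adjusted p = 2.70e-05) and GINS2 at -1.23 ± 0.19 (adjusted p = 0.000103). Of the mitotic members, MKI67 was at -1.66 ± 0.20 (adjusted p = 6.68e-06), UBE2C at -1.64 ± 0.20 (adjusted p = 6.28e-06) and CDC20 at -1.59 ± 0.18 (adjusted p = 2.50e-06). In H1944, GINS2 was at -1.76 ± 0.17 (adjusted p = 1.20e-10), MCM2 at -1.68 ± 0.09 (adjusted p = 1.04e-17), LIG1 at -1.13 ± 0.08 (adjusted p = 6.41e-15) and MCM4 at -1.08 ± 0.07 (adjusted p = 1.65e-15). Its mitotic members were led by PLK1 (-0.96 ± 0.11, adjusted p = 1.92e-09), UBE2C (-0.93 ± 0.16, adjusted p = 6.45e-06), CDC20 (-0.89 ± 0.11, adjusted p = 7.68e-09) and CCNB1 (-0.78 ± 0.09, adjusted p = 7.32e-09). The H1944 members that did not pass were KIF23 (-0.17), KIF11 (-0.14), BUB1B (0.00), BUB1 (0.07), CCNE2 (0.08) and CENPF (0.10).

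Between high and low gates, the median log2 difference of all 44 members in A549 was 0.25 under GSK126 and -0.04 under TGF-β1, against -0.05 and -0.02 over all genes. Under GSK126 39 of 44 members were above 0, beside 9326 of all 19842 genes tested, and the high gate there had 2 libraries. In H1944 the median difference of the members was 0.04 and -0.03. In A549 no member passed under either agent and none of the 19842 genes tested did, 0.0% higher and 0.0% lower in each comparison. With no filter on low counts 16 genes passed under GSK126 and 3 under TGF-β1. At an unadjusted p of 0.05 by edgeR, 1 member passed under GSK126 and 0 under TGF-β1, against 4.97% and 0.993% of all genes. DESeq2 called 0 members in both, and limma-voom 0 under GSK126 and 1 under TGF-β1. In H1944 under TGF-β1 no member passed, against 0.0147% of genes higher and 0.0440% lower, and 5 members had an unadjusted p under 0.05, against 5.15% of all genes. DESeq2 and limma-voom called 0 members there too.

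Under GSK126 in H1944 5 members differed between the gates, with 3.62% of all genes higher and 3.31% lower in the high gate. With 3 of 44 members higher and 2 lower, the counts were near those shares. POLA1 was at 117, 122 and 106 CPM in the low gate and at 75.6, 74.6 and 79.0 CPM in the high gate (log2 -0.59 ± 0.11, adjusted p = 0.00106). RRM2 was higher in the high gate (0.35 ± 0.11, adjusted p = 0.0452), at the values given above. AURKB, the kinase of the chromosomal passenger complex, was at 26.8, 28.5 and 29.9 CPM in the low and 42.4, 36.6 and 46.7 CPM in the high gate (log2 0.56 ± 0.15, adjusted p = 0.0188). UBE2C was at 16.3, 17.6 and 23.6 CPM against 32.5, 31.8 and 28.4 CPM (log2 0.71 ± 0.19, adjusted p = 0.0198). CENPF was at 618, 750 and 707 CPM against 587, 564 and 468 CPM (log2 -0.35 ± 0.10, adjusted p = 0.0330). The 2 mitotic members higher in the high gate were 6 by limma-voom, 4 with the background covariate or without low gate C, and 1 with no filter or with the compared groups only. The count of 5 rested on few libraries, since 2 members passed without low gate A or without high gate A and 1 without low gate B, none of them higher in the high gate.

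Other genes of the same pathways were counted in the same fits and stand beside the same shares over all genes, under TGF-β1 11.4% lower and 7.67% higher in A549 and 31.6% lower and 32.1% higher in H1944. Of 42 other replication genes, 23 fell and 1 rose under TGF-β1 in A549 (median -0.62), and 24 fell and 4 rose in H1944 (median -0.55). Of 52 other mitotic genes, 49 fell and none rose in A549 (median -1.12), whereas 23 fell and 5 rose in H1944 (median -0.25). The difference between the lines was higher in H1944 for 25 of these 52 and lower for none, and for the replication genes higher in 3 and lower in 2, against 10.5% and 9.48% of all genes. Under GSK126 in H1944, 9 of the replication genes rose and 1 fell, and 13 of the mitotic genes rose and 3 fell. Over all genes 21.5% were higher and 18.7% lower there, so the replication genes were at the background share for a rise and the mitotic genes near it. In A549 1 of each list rose and none fell, against 3.57% of all genes higher and 3.2% lower.

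TK1, which salvages thymidine in S phase, fell in A549 under TGF-β1 from 126, 138 and 127 CPM to between 23.7 and 42.0 CPM (log2 -1.96 ± 0.23, adjusted p = 4.93e-06). In H1944 it was at -0.26 ± 0.17 under TGF-β1 (adjusted p = 0.183) and rose by 0.93 ± 0.15 under GSK126 (adjusted p = 5.12e-06). In A549 under GSK126 it was at -0.56 ± 0.23 (adjusted p = 0.207). MYBL2, the B-MYB factor that acts with MuvB, was at -1.32 ± 0.21 in A549 (adjusted p = 0.000104) and at -0.04 ± 0.11 in H1944 (adjusted p = 0.790) under TGF-β1. Under GSK126 it was at 0.28 ± 0.21 in A549 (adjusted p = 0.546) and 0.87 ± 0.11 in H1944 (adjusted p = 3.75e-08). Of all 17 pocket protein, E2F, DREAM and MuvB genes, 6 fell and 1 rose under TGF-β1 in A549, where 11.4% of all genes were lower. In H1944, where 16 were tested, 5 fell and 2 rose, a share of falls at the background of 31.6%. RB1 itself did not pass in any comparison with naive cells, at 0.02 and -0.02 in A549 and -0.16 and 0.10 in H1944 under GSK126 and TGF-β1.

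CDKN1A, which encodes the kinase inhibitor p21, rose in all 4 comparisons with naive cells. In A549 it stood at 5.94, 5.06 and 4.57 CPM in naive cells, at 18.4, 29.3, 31.1, 19.9 and 35.1 CPM under GSK126 and at 91.2, 61.3, 167, 96.2 and 114 CPM under TGF-β1. None of these groups overlapped, and the log2 fold changes were 2.31 ± 0.33 (adjusted p = 0.000160) and 4.10 ± 0.33 (adjusted p = 4.21e-08). In H1944 it was at 44.6, 58.6 and 49.2 CPM in naive cells, and it rose by 1.21 ± 0.10 (adjusted p = 1.11e-11) and 2.39 ± 0.10 (adjusted p = 4.81e-20). Of 18 p53 target genes, 6 rose and 1 fell in A549 and 12 rose and 1 fell in H1944 under TGF-β1, against 7.67% and 32.1% of all genes higher. Under GSK126, 1 rose and none fell in A549 and 6 rose and 2 fell in H1944, against 3.57% and 21.5% higher, so 1 of 18 in A549 is near the background.

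CDKN1B, which encodes p27, fell in H1944 by 0.55 ± 0.11 under GSK126 (adjusted p = 6.82e-05) and by 1.12 ± 0.11 under TGF-β1 (adjusted p = 1.98e-10). In A549 it was at -0.45 (adjusted p = 0.327) and -0.48 (adjusted p = 0.174). Of 8 CDK inhibitor genes 4 were tested. Under TGF-β1 1 rose and 2 fell in each line, and under GSK126 1 rose and none fell in A549 and 1 rose and 1 fell in H1944. Over all genes under TGF-β1, 7.67% rose and 11.4% fell in A549, and 32.1% and 31.6% in H1944. Under GSK126 the shares were 3.57% and 3.2% in A549, and 21.5% and 18.7% in H1944. With 4 genes tested, the H1944 counts say little beside these shares. Beside CDKN1A and CDKN1B, the tested genes were CDKN2C, which encodes p18, and CDKN3, a phosphatase of CDK2, named after their values were seen. Under TGF-β1 CDKN3 fell in both lines (-2.08 and -1.26) and CDKN2C fell in A549 (-0.70, adjusted p = 0.0208) and was at -0.27 in H1944. CDKN1C, which encodes p57, averaged 0.42 to 0.79 CPM over the naive and treated cells of both lines and was not tested. CDKN2A and CDKN2B, which encode p16 and p15, had 0 counts in all 28 libraries. A count of 0 allows up to 3 counts, or 0.226 CPM in the deepest and 1.81 CPM in the shallowest library, which covers counting error only.

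The cyclin gene CCND1, which acts before S phase, rose in all 4 comparisons, by 1.07 ± 0.24 and 1.42 ± 0.24 in A549 and by 1.12 ± 0.11 and 2.43 ± 0.11 in H1944 under GSK126 and TGF-β1 (adjusted p of 0.00910, 0.000290, 1.59e-10 and 1.97e-19). Of its relatives, CCNE1 rose in H1944 under GSK126 (0.76 ± 0.14, adjusted p = 3.96e-05) and was at 0.06 there under TGF-β1 and at 0.44 and 0.01 in A549. CCND2 was low in both lines, with means over both gates of at most 3.23 CPM. It did not pass in A549 (-1.39 and 0.60) and was not tested in H1944. Of 13 G1 cyclins, CDKs and S-phase entry regulators, 2 rose and 6 fell in A549 under TGF-β1 (median -0.57), and 2 rose and none fell under GSK126. In H1944, where 12 were tested, 4 rose and 4 fell under TGF-β1 (median -0.20), close to the background shares, and 8 rose and 1 fell under GSK126 (median 0.45). Over all genes in A549, 7.67% rose and 11.4% fell under TGF-β1, and 3.57% and 3.2% under GSK126. In H1944 these shares were 32.1% and 31.6% under TGF-β1, and 21.5% and 18.7% under GSK126. ID1, an inhibitor of differentiation factors, fell in H1944 under TGF-β1 (-1.29 ± 0.11, adjusted p = 3.90e-12). In A549 it was at -0.71 ± 0.26 under TGF-β1 (adjusted p = 0.0641) and 0.46 under GSK126, and in H1944 at -0.14 under GSK126. Of the 4 ID genes, 3 rose and none fell under GSK126 in each line, namely ID2 (2.73 in A549 and 2.40 in H1944), ID3 (1.34 and 3.14) and ID4 (4.06 and 2.50). Under TGF-β1 1 rose and none fell in A549, and 1 rose and 1 fell in H1944, the riser being ID3 in both (1.19 and 3.56). ID2, ID3 and ID4 were named after their values were seen. The counts of ID genes stand beside the same shares over all genes as those of the cyclins and CDKs.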

How the data were processed

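RNA-seq of 28 libraries (13 of A549, 15 of H1944) was read from 1 table of raw counts per gene as deposited. Per the submitters' processing notes, bcl2fastq 2.20.0, STAR 2.6.0c and HTSeq 0.12.3 were used with the build GRCh38, and the labels' protocols name a stranded total RNA kit. The counting's strand setting, annotation release, trimming and handling of duplicates are not given in the sources used here. The table has 60487 rows, 4 of them reporter sequences. Symbols, coordinates and exon lengths came from GENCODE 29.

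Counts were fitted with edgeR 4.0.16 (R 4.3.3, limma 3.58.1): TMM scaling, filterByExpr, quasi-likelihood F tests in each line over its 5 groups, and 1 joint fit of all 28 libraries for differences between lines. P-values were adjusted by Benjamini-Hochberg over all genes tested, at 0.05. A treatment effect is the mean of both gates minus naive cells. Alternatives were RLE scaling, other filters, DESeq2 1.42.0, limma-voom with sample weights, a replicate block, a background covariate, fewer libraries and each gate alone. CPM is counts over the library total, without TMM. The fits within each line were tested on simulated data for TGF-β1 against naive cells only, with no outcome given here. The joint fit and the other comparisons were not tested in that way. Promoters are RefSeq's, in GRCh38.p14.

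The members and lists were chosen with earlier results of these data known. Full values are given for the 3 members of smallest adjusted p and the 2 of largest change in each set and comparison, and for other members where a result turns on them, chosen after their values were seen. Letters of replicates are not stated to mark a shared culture or day and were not taken as pairs.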

Additional observations from a re-analysis of the deposited data

Results flagged for a closer look

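The test of the difference between the lines, H1944 minus A549 in the joint edgeR fit, picked out 18 members under TGF-β1 and 1 under GSK126. Over all genes, 10.5% were higher and 9.48% lower under TGF-β1, and 6.18% and 3.73% under GSK126. Under TGF-β1 the mitotic members were KIF20A (1.14 on the log2 scale), MKI67 (1.09), CDK1 (0.98), CENPF (0.91), KIF11 (0.89), KIF23 (0.87), UBE2C (0.82), CCNA2 (0.73), BUB1B (0.73), TOP2A (0.69), TPX2 (0.67) and FOXM1 (0.62), all higher in H1944. Of the replication members, TYMS (0.98) and RRM2 (0.96) were higher, and MCM5 (-0.81), MCM6 (-0.68), MCM4 (-0.65) and MCM2 (-0.52) were lower. Under GSK126 it was PCNA (0.90). Of the 18 members, 7 passed under every alternative run, and PCNA did not. No group had enough libraries for a check of single libraries that stand apart.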

How the results depend on the processing

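Counts are of the 44 members past the test. For A549 under GSK126 against naive cells (0 by edgeR), RLE scaling gave 2, DESeq2 4, limma-voom 4, the background covariate 3, leaving out the 2 background-rich libraries 4, the high gate alone 1, the compared groups only 3, and leaving out 1 library 0 to 2. For A549 under TGF-β1 (42), the compared groups only gave 26. Between its gates under TGF-β1 (0), limma-voom gave 1. For H1944 under GSK126 (17), no filter gave 10, and leaving out 1 library 11 to 21. Between its gates under GSK126 (5), no filter gave 2, a filter at 1 CPM 3, limma-voom 9, the compared groups only 2, and leaving out 1 library 1 to 6. For the line difference under GSK126 (1), RLE gave 2, DESeq2 3, limma-voom 4, the covariate 4, leaving out the background-rich libraries 4, the low gate 2, the high gate 0, and leaving out 1 library 0 to 4. For that under TGF-β1 (18), the low gate gave 10, the high gate 11, and leaving out 1 library 11 to 21. POLA1 changed sign in H1944 under GSK126, from 0.00 to -0.29 with the high gate alone. The cause was not tested in these cases, except that the compared groups only, single gates and left-out libraries leave fewer samples.

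Over all genes, calls moved by more than 1.5 times in A549 under GSK126 (1344, against 2281 by DESeq2, 3396 by limma-voom, 2711 with the covariate, 2648 without background-rich libraries, 852 for the low gate, 2212 for the compared groups only and 627 at the lowest without 1 library). They moved under TGF-β1 (3775) to 7921 by limma-voom and 2383 for the low gate, and for TGF-β1 against GSK126 (3838) to 6054 by limma-voom and 2100 without GSK126 high gate B. Between the A549 gates, 0 under GSK126 became 16 with no filter and 18 with the compared groups only. Under TGF-β1, 0 became 3 with no filter, 17 by DESeq2, 1393 by limma-voom, 9 with the covariate and 53 without background-rich libraries. Between the H1944 gates, 944 under GSK126 became 570, 428 and 308 to 584 (no filter, compared groups only, without 1 library), and 8 under TGF-β1 became 13 with no filter, 13 by limma-voom, 26 with the compared groups only and 0 to 3 without 1 library. The line differences (1775 and 3588) became 2883 and 6126 by limma-voom, and 1162 for GSK126 in the low gate.

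With a replicate block, 37 members passed in A549 under TGF-β1, 32 in H1944 under TGF-β1, 18 in H1944 under GSK126, 5 between its gates and 13 in the line difference under TGF-β1. In no 2 groups with 3 shared letters was every same-letter correlation of deviations above 0.1. The nearest were the H1944 low gates of both agents, at 0.052 to 0.202 against at most 0.009 between other letters, and the H1944 gates under GSK126 ran from 0 to 0.13. Counts of calls were within 1.5 times for the members. Over single members and alternatives, 9399 values stayed on their side of the test, with the same direction where called. Another 354 lost the call, 146 gained it and 1 changed sign with a call in either fit. Changes of sign among values called in neither fit were not counted. Library totals from 1660148 to 13280592 counts limit what could be called, and how far was not tested.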
